A study of Mus musculus with 2 samples.

Results

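The genes described here encode the translation initiation and elongation factors of the mouse. They were chosen by symbol: the autosomal protein-coding genes whose symbol begins with Eif1 to Eif6, Eef1 or Eef2, without the eIF2 kinases of the Eif2ak series. The rule found 60 genes among 21474 protein-coding genes, 48 with an Eif symbol and 12 with an Eef symbol, and it used no measured value. RNA was sequenced from mouse leukemia stem cells, which per the labels carried Friend virus, the mouse retrovirus of erythroleukemia, and were CD34+, CD133+, Kit+ and Sca1+. Adult mice of both sexes, 10 to 12 weeks old and of a strain that carries the sensitive allele Fv2s, were pooled for the cells. The series holds 1 group of 2 libraries, biological replicates 2 and 1, with 22541765 and 23575315 estimated counts. The labels give both libraries the same donor record and different biosamples and say nothing of separate cultures, so the spread between them may be technical, and no comparison between conditions exists.

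Protein synthesis starts when a small ribosomal subunit, loaded with initiator tRNA by eIF2 and held open by eIF1, eIF1A and eIF3, is brought to the capped end of an mRNA by eIF4E, eIF4G and the helicase eIF4A. The subunit scans to a start codon, eIF5 and eIF5B complete subunit joining, and eEF1A and eEF2 then drive each cycle of elongation. In red cell precursors this machinery serves globin synthesis, and the heme-regulated kinase Eif2ak1 slows it by phosphorylating eIF2 when heme is short.

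Levels are deposited TPM, the share of a gene among all transcripts after division of its counts by transcript length. Of the 60 factors, 52 reached 1 TPM in both libraries, against a background of 41.6% of all protein-coding genes. The median factor had 21.6 TPM in replicate 2 and 48.6 TPM in replicate 1, while the median protein-coding gene had 0.34 and 0.65 TPM in the same order. A mean of 100 TPM or more was reached by 20 of the 60 factors, a share of 33.3%, and by 5.62% of protein-coding genes. Together the factors made up 1.18% of the summed TPM of replicate 2 and 1.66% of that of replicate 1. The 80 cytosolic ribosomal protein genes took more, 7.28% in replicate 2 and 10.7% in replicate 1, and 77 of them reached 1 TPM in both libraries. Across the 52 detected factors the libraries correlated with Pearson's r of 0.913 and Spearman's rho of 0.923 on log2(TPM + 1), values that describe genes in the same pair of libraries and not independent samples.

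The RNA was rich in erythroid transcripts and carried few transcripts of its sort markers. All 10 erythroid marker genes reached 1 TPM in both libraries and summed to 224140 TPM in replicate 2 and 113960 TPM in replicate 1, mostly globin. The higher sum in replicate 2 came from Hba-a1 and Hba-a2, while the other 8 genes had a ratio below 0 and 4 of them, Gata1, Slc4a1, Tfrc and Hbb-bt, were higher in replicate 1 by the call described further on. Of the sort markers, Ly6a had 2.15 TPM in replicate 2 and 1.45 TPM in replicate 1, Kit 1.06 and 1.81 TPM, Cd34 0.27 and 1.80 TPM, and Prom1 0 counts in replicate 2 and 3 in replicate 1. Marker genes of other cells were also present: 4 of 5 macrophage genes (1221 TPM summed in replicate 2 and 838 in replicate 1), 4 of 4 B lineage genes (279.8 and 688 TPM), 6 of 6 granulocyte genes (31.2 and 56.8 TPM) and 3 of 3 T and NK genes (74.9 and 77 TPM) reached 1 TPM in both. In bulk RNA a change in the number of cells of a type and a change in RNA per cell cannot be told apart.

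**Figure D1:**
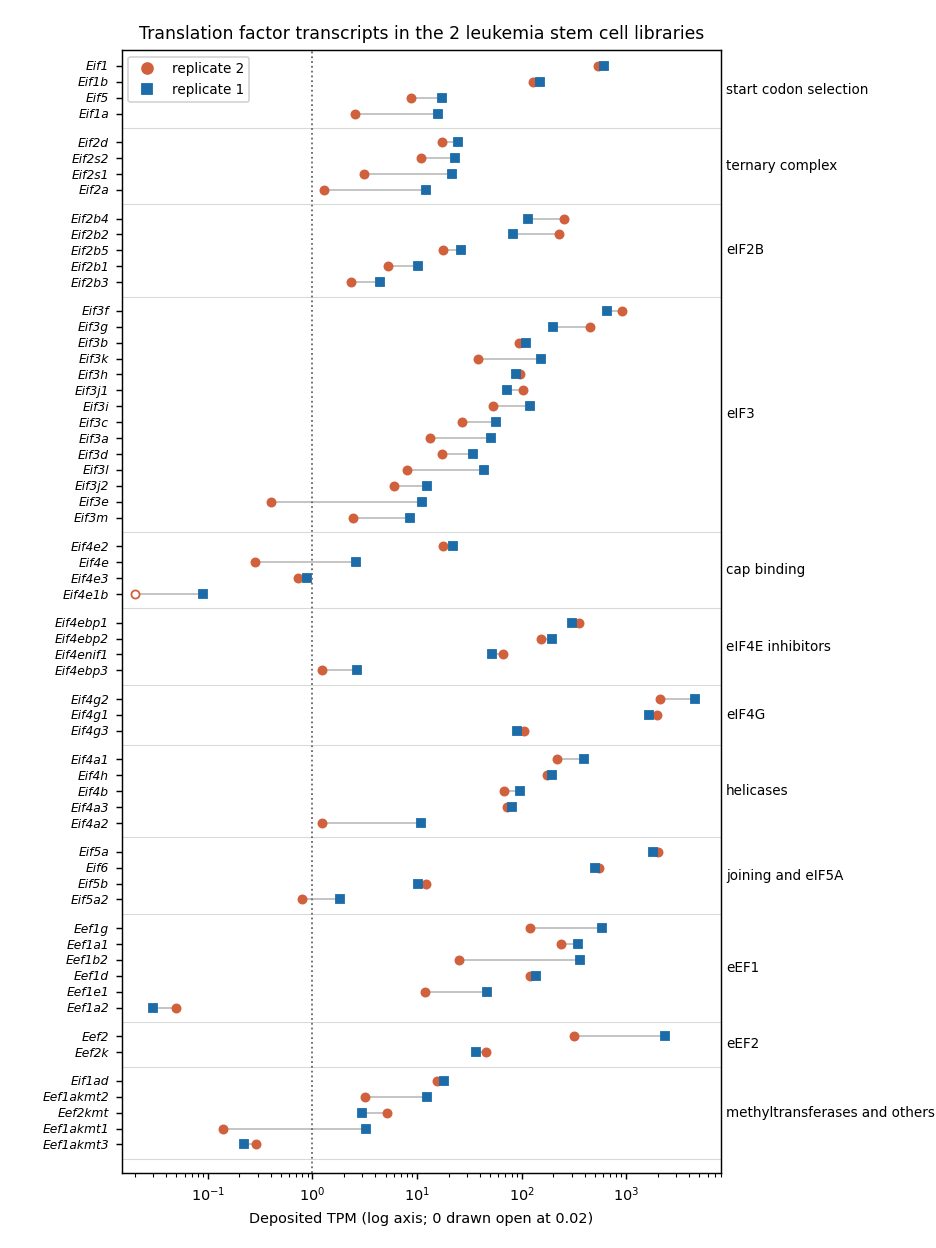
Deposited TPM of each of the 60 translation factors (log axis) in replicate 2 (circles) and replicate 1 (squares), grouped by role, with the highest mean at the top of each group and a dotted line at 1 TPM. Of the 60 factors, 52 lie at or right of the dotted line in both libraries, and Eif3e, Eif4e, Eif5a2 and Eef1akmt1 are above it in replicate 1 and below it in replicate 2.

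Sequence at the 5′ end of these genes was read first, because many mRNAs of the translation machinery begin with a C and a run of pyrimidines, the 5′ terminal oligopyrimidine (TOP) motif through which mTOR controls their translation. The RefSeq promoter table, on GRCm38.p6, held 58 entries for 44 of the 60 factors, each of 300 bases from 250 before to 50 after an annotated start. A C at the annotated start followed by 4 or more pyrimidines was found in 1 of the 44 genes, Eif3f, a share of 2.27%, and in 2.73% of all protein-coding genes with an entry. Allowing a C followed by 5 or more pyrimidines within 2 bases of the start gave 4 of 44 genes, Eef1a1, Eif2b5, Eif3f and Eif4g1, or 9.09%, against 6.77% of all. The 5 starts below belong to genes usually listed among the TOP mRNAs, and they are shown because the annotated first base decides this count. Each gives 10 bases before the start and 20 from it, 5′ to 3′ on the gene's strand, with the pyrimidines that begin at the annotated start in capitals.
Eef1a1 (chr9:78481705-78481734, minus strand): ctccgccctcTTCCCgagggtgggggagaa
Eef1b2 (chr1:63176821-63176850, plus strand): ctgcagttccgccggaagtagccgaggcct
Eef2 (chr10:81176621-81176650, plus strand): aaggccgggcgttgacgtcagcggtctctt
Eif3f (chr7:108934405-108934434, plus strand): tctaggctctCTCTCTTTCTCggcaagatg
Eif4b (chr15:102073763-102073792, plus strand): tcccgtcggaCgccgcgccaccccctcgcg
Eif3f thus shows an uninterrupted run from the annotated base. The Eef1a1 run is preceded by further pyrimidines and begins with T at the annotated base, and Eef2 and Eef1b2 have G there. An annotated start need not be the base at which transcription begins in these cells, so the count says only what these letters hold.

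Other short motifs were searched on both strands of the 300 bases. The E-box CACGTG, the core site of MYC and related factors, was in 12 of 44 factor genes (27.3%) and in 9.24% of protein-coding genes with an entry. The ETS core CCGGAAG was in 15 of 44 (34.1%, against 13.5% of all) and the GC box GGGCGG in 33 of 44 (75%, against 51.4%). The GATA core AGATAA was in 1 of 44 (2.27%, against 10.9%), the Eif3c entry, and TATAAA in 4 of 44 (9.09%, against 14.1%). CACGTG is its own reverse complement, and none of these motifs contains another. The 12 genes with an E-box had a median of 161 TPM, between Eif5a2 at 1.3 TPM and Eif5a at 1910 TPM. The 32 genes with an entry and no E-box had a median of 25.8 TPM, between Eef1a2 at 0.040 TPM and Eif1 at 579 TPM, so the groups overlapped over most of their range. The 8 windows below, each of 30 bases 5′ to 3′ on the gene's strand with the E-box in capitals, are those of abundant factors discussed further on. The position in words is the distance of the first E-box base from the annotated start.
Eif5a (chr11:69921443-69921472, minus strand): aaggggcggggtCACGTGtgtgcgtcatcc
Eif4g1 (chr16:20672661-20672690, plus strand): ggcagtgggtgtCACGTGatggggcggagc
Eef2 (chr10:81176576-81176605, plus strand): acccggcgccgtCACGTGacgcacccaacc
Eif3f (chr7:108934335-108934364, plus strand): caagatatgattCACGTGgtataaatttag
Eif4a1 (chr11:69672595-69672624, minus strand): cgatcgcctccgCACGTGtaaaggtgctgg
Eif4h (chr5:134639488-134639517, minus strand): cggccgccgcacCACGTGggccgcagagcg
Eif1b (chr9:120492570-120492599, plus strand): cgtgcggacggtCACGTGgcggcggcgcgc
Eif3k (chr7:28981915-28981944, minus strand): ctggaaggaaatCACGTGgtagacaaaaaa
The site lay 54 bases before the start in Eif4g1, 43 in Eef2, 68 in Eif3f, 189 in Eif4a1, 96 in Eif4h, 24 in Eif1b and 44 in Eif3k. In Eif5a, which has 6 annotated starts, the site shown lay 74 bases before one start and 185 before another. A match of letters is a description and no evidence of binding.

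A small number of genes carried much of the total. Eif4g2, Eif5a and Eif4g1 held 51.5% of all factor TPM in replicate 2 and 47.95% in replicate 1. On the fixed-length scale described in the next paragraph the same 3 genes held 37.6% in replicate 2 and 25.7% in replicate 1. The 12 most abundant factors held 82.8% in replicate 2 and 84.0% in replicate 1. Eif4g2 (chromosome 7, 111067750 to 111083030) encodes DAP5, an eIF4G relative that does not bind eIF4E. It had 2096 TPM in replicate 2 and 4503 TPM in replicate 1. Eif4g1 (chromosome 16, 20668313 to 20692884), the scaffold that joins eIF4E, eIF4A and eIF3, had 1969 TPM in replicate 2 and 1641 TPM in replicate 1, and its relative Eif4g3 had 105 and 89.7 TPM. Eif4g1 exceeded Eif4g3 18.7 times in replicate 2 and 18.3 times in replicate 1, and by fixed-length levels 23.8 and 14.9 times. Coding transcripts alone gave Eif4g1 249 TPM in replicate 2 and 320 TPM in replicate 1, and Eif4g3 36.8 and 83.9 TPM. On coding transcripts the excess of Eif4g1 was therefore smaller.

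The order of the leading factors depended on the length by which counts were divided. In both libraries over 95% of Eif4g2 TPM was assigned to Eif4g2-203, a coding transcript of 742 bases, while the longest coding transcript of the gene has 7995 bases in the M21 annotation and 5177 bases in the authors' older gene models. Eif4g1 rested on the processed transcript Eif4g1-211, of 626 bases, for 81.3% of its TPM in replicate 2 and 77.4% in replicate 1. Eif6 rested on Eif6-204, of 373 bases, for 83.9% and 89.8%, and Eif4a1 on the processed transcript Eif4a1-208, of 435 bases, for 57.8% and 48.3%. When the counts of every gene were instead divided by its longest coding transcript of M21 and scaled over protein-coding genes to the total that TPM has over all rows, a reading added after the data were seen, Eif5a had the highest mean, with 3221 in replicate 2 and 2630 in replicate 1. On that scale Eef2 was second by its mean, with 580 in replicate 2, where it was sixth, and 4046 in replicate 1, where it was first. By their means there followed Eif3f with 1661 and 1092, Eif1 with 903 and 976, and Eif4g1 with 676 and 644. Eif4g2 was then eighth by its mean, with 320.0 in replicate 2 and 657 in replicate 1. With the coding lengths of the authors' models, an alternative also added after seeing the data, Eif4g2 had the fifth highest mean, with 474 in replicate 2 and 984 in replicate 1, and its ratio of TPM to fixed-length level was 4.53. With M21 lengths the ratio of mean deposited TPM to mean fixed-length level was 0.713 in the median factor, and it exceeded 2 in 6 factors: Eif4g2 (6.75), Eif3j1 (3.48), Eif4g1 (2.73), Eif4g3 (2.72), Eef1b2 (2.31) and Eif6 (2.23). The scales differ even at an equal length, so a ratio of 1 does not mark an unchanged length. For Eif4b, with 3853 bases in the authors' models and 3854 in M21, the ratio was 0.563. By their means Eif5a, Eef2, Eif3f and Eif4g1 were among the 5 highest factors by TPM and by fixed-length level with M21 lengths, although Eef2 was ninth by TPM in replicate 2.

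**Figure D2:**
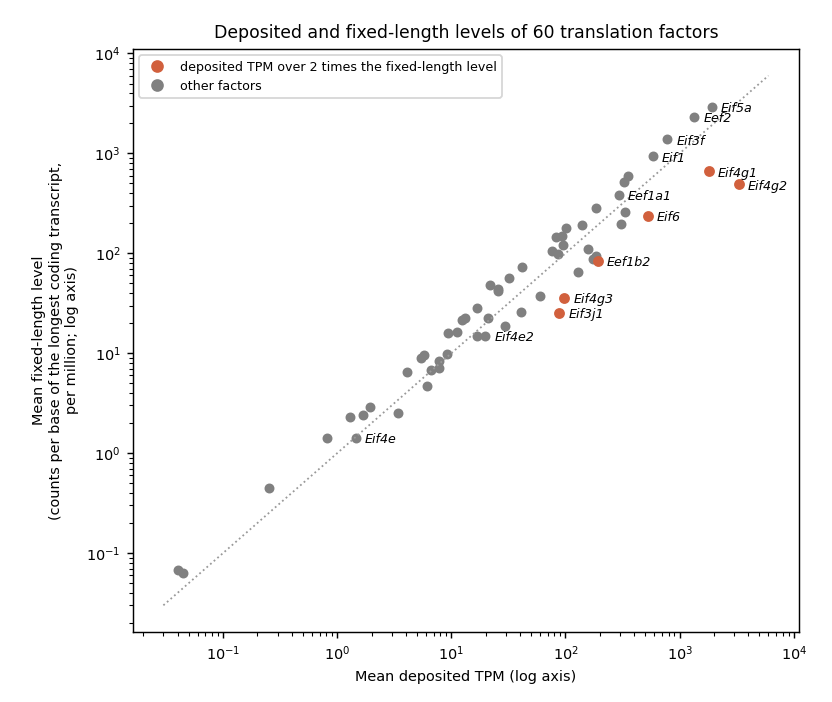
Mean of both libraries for each of the 60 factors, as deposited TPM (horizontal, log axis) and as counts per base of the longest coding transcript of M21, scaled over protein-coding genes (vertical, log axis); the dotted line marks equal values. The 6 factors in orange have a TPM more than 2 times their fixed-length level, with Eif4g2 farthest from the line at a ratio of 6.75. Because the scales differ, a factor of nearly unchanged length lies above the line, as Eif4b does at a ratio of 0.563.

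Among the factors of start codon selection, eIF1 transcripts were abundant and eIF1A transcripts from the autosome scarce. Eif1, whose product keeps the scanning subunit from stopping at a wrong codon, had 541 TPM in replicate 2 and 616 TPM in replicate 1. Its paralog Eif1b had 127 TPM in replicate 2 and 150.2 TPM in replicate 1, so that Eif1 exceeded it 4.25 and 4.10 times. Eif1a had 2.57 TPM from 85 counts in replicate 2 and 15.8 TPM from 534 counts in replicate 1. Its copy on the X chromosome, Eif1ax, which the rule left out, had 296 TPM from 1628 counts in replicate 2. In replicate 1 Eif1ax had 592 TPM from 3399 counts. The gap between Eif1ax and Eif1a was wider in TPM than in counts, so its size depended on the transcript lengths used. Eif5, which triggers GTP hydrolysis on eIF2, had 8.74 TPM in replicate 2 and 17.4 TPM in replicate 1.

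The genes that deliver initiator tRNA were expressed at modest levels. Eif2s1, the alpha subunit of eIF2 on which the stress kinases act, had 3.10 TPM in replicate 2 and 21.8 TPM in replicate 1. Eif2s2, the beta subunit, had 10.9 TPM in replicate 2 and 22.9 TPM in replicate 1, and the X-linked gamma subunit Eif2s3x, not among the 60, had 9.38 and 30.7 TPM. Its Y-linked copy Eif2s3y had 0 counts in both libraries, although the labels give pooled males and females. Of the factors that can bring tRNA to the ribosome without eIF2, Eif2d had 17.2 TPM in replicate 2 and 24.5 TPM in replicate 1, and Eif2a had 1.28 and 12.1 TPM.

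The 5 subunits of eIF2B, which reloads eIF2 with GTP, differed widely in TPM. Eif2b4, the delta subunit, had 254 TPM in replicate 2 and 115 TPM in replicate 1, and Eif2b2, the beta subunit, had 229.9 and 83.3 TPM. The catalytic subunit Eif2b5 had 17.9 TPM in replicate 2 and 26.1 TPM in replicate 1, Eif2b1 had 5.29 and 10.2 TPM, and Eif2b3, the lowest, had 2.36 and 4.41 TPM. The high values of Eif2b4 in both libraries and of Eif2b2 in replicate 2 went with short transcripts that M21 does not annotate as coding. A transcript of 512 bases that M21 does not list, and whose type is therefore unknown here, took 84.1% of Eif2b4 TPM in replicate 2 and 73.7% in replicate 1. Coding transcripts of Eif2b4 summed to 18.9 TPM in replicate 2 and 24.97 TPM in replicate 1. For Eif2b2 the retained-intron transcript Eif2b2-206, of 338 bases, led in replicate 2 with 85.8%, and the coding Eif2b2-201 led in replicate 1 with 92.3%. Coding transcripts of Eif2b2 summed to 17.2 TPM in replicate 2 and 77.3 TPM in replicate 1.

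The 14 genes of eIF3, the scaffold that organises the small subunit, covered a wide range of levels. Eif3f (chromosome 7, 108934417 to 108942951) was the highest, with 912 TPM in replicate 2 and 648 TPM in replicate 1. Eif3g (chromosome 9, 20894349 to 20898623), an RNA-binding subunit, had 450.1 TPM in replicate 2 and 198 TPM in replicate 1. Of the core subunits, Eif3b had 93.5 TPM in replicate 2 and 109 TPM in replicate 1, Eif3c 26.6 and 56.9 TPM, and Eif3a 13.2 and 50.6 TPM. Eif3h had 96.8 TPM in replicate 2 and 89.2 TPM in replicate 1, Eif3i 53.6 and 119.9 TPM, Eif3k 38.1 and 151 TPM, Eif3d 17.2 and 34.5 TPM, and Eif3l 8.08 and 43.3 TPM. The lowest were Eif3m, with 2.43 TPM in replicate 2 and 8.47 TPM in replicate 1, and Eif3e (chromosome 15, 43250058 to 43282719), with 0.40 and 11.2 TPM. These proteins are known as subunits of 1 complex, and 13 of the 14 genes passed 1 TPM in both libraries, while the highest and lowest were 2281-fold apart in replicate 2 (Eif3f over Eif3e, which had 11 counts) and 76.45-fold apart in replicate 1 (Eif3f over Eif3m). Eif3j1 had 103 TPM in replicate 2 and 73.2 TPM in replicate 1, and Eif3j2 had 6.02 and 12.5 TPM. Of Eif3j1 TPM, 93.03% in replicate 2 and 90.9% in replicate 1 was the processed transcript Eif3j1-202, of 594 bases. Coding transcripts of Eif3j1 gave 7.17 TPM in replicate 2 and 6.66 TPM in replicate 1, so on coding transcripts Eif3j1 was the higher of the pair in replicate 2 and the lower in replicate 1, and by fixed-length levels Eif3j1 exceeded Eif3j2 2.65 and 1.03 times. The split is also uncertain, because the Eif3j1 and Eif3j2 transcripts share 2239 words of 25 bases and the authors' fractional counts split reads between them.

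At the cap, transcripts of eIF4E itself were scarce and those of its inhibitors abundant. Eif4e (chromosome 3, 138526179 to 138559696), the major cap-binding protein, had 0.28 TPM from 15 counts in replicate 2 and 2.62 TPM from 142 counts in replicate 1. Eif4e2, which binds caps and is known as a repressor, had 17.9 TPM in replicate 2 and 21.8 TPM in replicate 1. Eif4e3 had 0.73 TPM in replicate 2 and 0.89 TPM in replicate 1, so Eif4e was the lower of these 2 genes in replicate 2 and the higher in replicate 1. Eif4e1b, known from oocytes, had 0 counts in replicate 2, where 3 counts would give 0.181 TPM, and 3 counts in replicate 1. Its deposited posterior mean TPM was higher, at 0.76 in replicate 2 and 0.83 in replicate 1. The inhibitor Eif4ebp1, which holds eIF4E until mTOR phosphorylates it, had 356 TPM in replicate 2 and 305 TPM in replicate 1. Eif4ebp2 had 153 TPM in replicate 2 and 196 TPM in replicate 1, and Eif4ebp3 1.24 and 2.67 TPM. Eif4enif1, a transporter of eIF4E, had 66.7 TPM in replicate 2 and 52.1 TPM in replicate 1. Coding transcripts of Eif4enif1 gave 37.3 TPM in replicate 2 and 44.1 TPM in replicate 1, the reverse order. Eif4ebp1 exceeded Eif4e in TPM 1273 times in replicate 2 and 116 times in replicate 1, a ratio of RNA levels that says nothing of the proteins. The longest coding transcript has a GC content of 48.2% in Eif4ebp1 and 40.5% in Eif4e. GC content moved with level in both libraries, as given further on, and its part in this ratio was not tested. Eif4e counts went to a single annotated transcript in the authors' gene models.

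The helicase genes were led by Eif4a1, the main eIF4A, with 217 TPM in replicate 2 and 398 TPM in replicate 1. Eif4a2 had 1.23 TPM in replicate 2 and 11 TPM in replicate 1, and retained-intron transcripts took 68.3% of that in replicate 2 and 73.7% in replicate 1. Coding transcripts alone gave Eif4a1 15.6 TPM in replicate 2 and 60.3 TPM in replicate 1. Eif4a3, a component of the exon junction complex, had 71.9 TPM in replicate 2 and 81.0 TPM in replicate 1. The helicase cofactor Eif4h had 173 TPM in replicate 2 and 195 TPM in replicate 1, and the other cofactor Eif4b had 67.3 and 97.4 TPM.

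Of the late initiation factors, Eif5a stood out. Eif5a (chromosome 11, 69916714 to 69921958), whose hypusine-bearing product helps the ribosome through difficult peptide bonds, had 2030.2 TPM in replicate 2 and 1789 TPM in replicate 1. Its paralog Eif5a2 had 0.79 TPM in replicate 2 and 1.82 TPM in replicate 1, and the ratio of the pair was 2570 in replicate 2 and 983 in replicate 1. Of the enzymes that make hypusine, Dohh had 258 TPM in replicate 2 and 203 TPM in replicate 1 and Dhps had 73.0 and 52.9 TPM, a pair named after their values were seen. Eif6, which keeps the large subunit from joining too early, had 553 TPM in replicate 2 and 503 TPM in replicate 1. Eif5b, the joining GTPase, had 12.3 TPM in replicate 2 and 10.2 TPM in replicate 1, of which 82.1% and 80.4% was the retained-intron transcript Eif5b-202.

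Elongation factors were abundant and uneven between the libraries. Eef2 (chromosome 10, 81176631 to 81182498), the translocase, had 314 TPM from 18443 counts in replicate 2 and 2366 TPM from 138629 counts in replicate 1. Its inhibitory kinase Eef2k had 45.1 TPM in replicate 2 and 36.3 TPM in replicate 1. Retained-intron transcripts took 78.55% of Eef2k TPM in replicate 2 and 36.9% in replicate 1. Coding transcripts of Eef2k gave 9.68 TPM in replicate 2 and 22.9 TPM in replicate 1, the reverse order. Eef1a1, which brings aminoacyl-tRNA to the ribosome, had 238 TPM in replicate 2 and 349 TPM in replicate 1. Eef1a2, the form of muscle and neurons, had 0.05 TPM from 2 counts in replicate 2 and 0.03 TPM from 1 count in replicate 1. None of the 4 muscle and brain marker genes reached 1 TPM in both libraries, and their summed level was 0.77 TPM in replicate 2 and 0.44 TPM in replicate 1, with Myh7 at 0 in both. Against the level that 3 counts of Eef1a2 would give in each library, Eef1a1 was at least 3065-fold higher in replicate 2 and at least 4480-fold higher in replicate 1. In the exchange complex that recharges eEF1A, Eef1g had 121 TPM in replicate 2 and 584 TPM in replicate 1, Eef1d 119 and 138 TPM, and Eef1b2 25.4 and 361 TPM. Eef1b2 was mostly read from forms not annotated as coding, and its coding transcripts gave 1.3 TPM in replicate 2 and 21.2 TPM in replicate 1. Eef1e1, a member of the multisynthetase complex, had 12.0 TPM in replicate 2 and 46.6 TPM in replicate 1.

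The enzymes that methylate elongation factors were low. Eef1akmt2 had 3.15 TPM in replicate 2 and 12.5 TPM in replicate 1, Eef2kmt 5.18 and 2.99 TPM, Eef1akmt1 0.14 and 3.24 TPM, and Eef1akmt3 0.29 and 0.22 TPM. Eif1ad, which shares a domain with eIF1A and acts in small subunit maturation in human cells, had 15.4 TPM in replicate 2 and 17.98 TPM in replicate 1. In all, 8 factors were under 1 TPM in at least 1 library: Eef1a2, Eef1akmt1, Eef1akmt3, Eif3e, Eif4e, Eif4e1b, Eif4e3 and Eif5a2.

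The libraries were then set against each other gene by gene. The ratio is log2 of replicate 2 over replicate 1 of the rounded counts after TMM scaling, and a gene was called apart where its exact 95% interval lay wholly outside a 2-fold range. The intervals cover counting error only, a comparison of 2 single libraries has no replicate check, and no p-value was computed. Of the 60 factors, 58 had the 20 counts over both libraries that the comparison required, and only Eef1a2 and Eif4e1b did not. Higher in replicate 2 were 2 of 58, or 3.45%, against a background of 8.78% of the 11708 protein-coding genes compared. Higher in replicate 1 were 15 of 58, or 25.9%, against a background of 14.6%. The median ratio over the factors was −0.42, against −0.04 over all protein-coding genes compared and −0.57 over the 78 ribosomal protein genes compared, of which 7 were higher in replicate 2 and 26 in replicate 1. When deposited TPM was used for the ratio, the medians were −0.55 for the factors and −0.45 for all protein-coding genes, a gap of −0.10 in place of −0.38.

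Eif3g and Eif2b4 were the factors higher in replicate 2. Eif3g had 8352 counts in replicate 2 and 3682 in replicate 1, a log2 ratio of 1.67 (interval 1.62 to 1.73). Eif2b4 had 2484 counts in replicate 2 and 1590 in replicate 1, a ratio of 1.14 (1.04 to 1.23), and it was not apart when scaled by total counts. Coding transcripts held 27.5% of the Eif2b4 counts in replicate 2 and 56.55% in replicate 1. The other Eif2b4 counts went to forms that M21 does not annotate as coding or does not list, and a ratio of coding counts alone was not computed. In TPM the coding transcripts of Eif2b4 were lower in replicate 2, at 18.9, than in replicate 1, at 24.97, the reverse of the call. Just short of the call lay Eif3f at 0.99 (0.97 to 1.01), which was apart with DESeq2 size factors, and Eef2kmt at 1.11 (0.77 to 1.47).

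Of the 15 genes higher in replicate 1, 6 had an Eef symbol, out of 11 such genes compared, against a background of 14.6% of protein-coding genes, and the median of the 11 was −1.47. Only 3 of the 6, Eef2, Eef1b2 and Eef1g, encode parts of eEF1 or eEF2 that act in elongation; Eef1e1 belongs to the multisynthetase complex, and Eef1akmt1 and Eef1akmt2 are methyltransferases. Eef2, the member with the most counts, had a ratio of −2.42 (−2.44 to −2.40). Eef1b2 had −3.13 (−3.32 to −2.95) and Eef1g −1.78 (−1.83 to −1.74). The others of the 6 were Eef1akmt1 at −3.75 from 2 counts in replicate 2 and 45 in replicate 1, Eef1akmt2 at −1.67 and Eef1e1 at −1.47. Eef1a1 and Eef1d, the other abundant parts of eEF1, were not apart, at −0.35 and 0.24. Among 47 Eif genes compared, 9 were higher in replicate 1, a share of 19.1% that is near the 14.6% background, and the median of the 47 was −0.25. The lowest ratio of all was that of Eif3e, −4.28 (−5.35 to −3.47), from 11 counts in replicate 2 and 311 in replicate 1. Eif4e followed at −2.72, Eif4a2 at −2.39, Eif2s1 at −2.31, Eif1a at −2.15, Eif3l at −1.93, Eif2a at −1.89, Eif3k at −1.51 and Eif3a at −1.44. Eif3m, at −1.40 (−1.87 to −0.96), was just short of the call. Of the 9 factors usually listed among the TOP mRNAs, 0 were higher in replicate 2, against a background of 8.78%, and 4 in replicate 1 (Eef1b2, Eef1g, Eef2 and Eif3e), against 14.6%, with a median of −0.35.

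**Figure D3:**
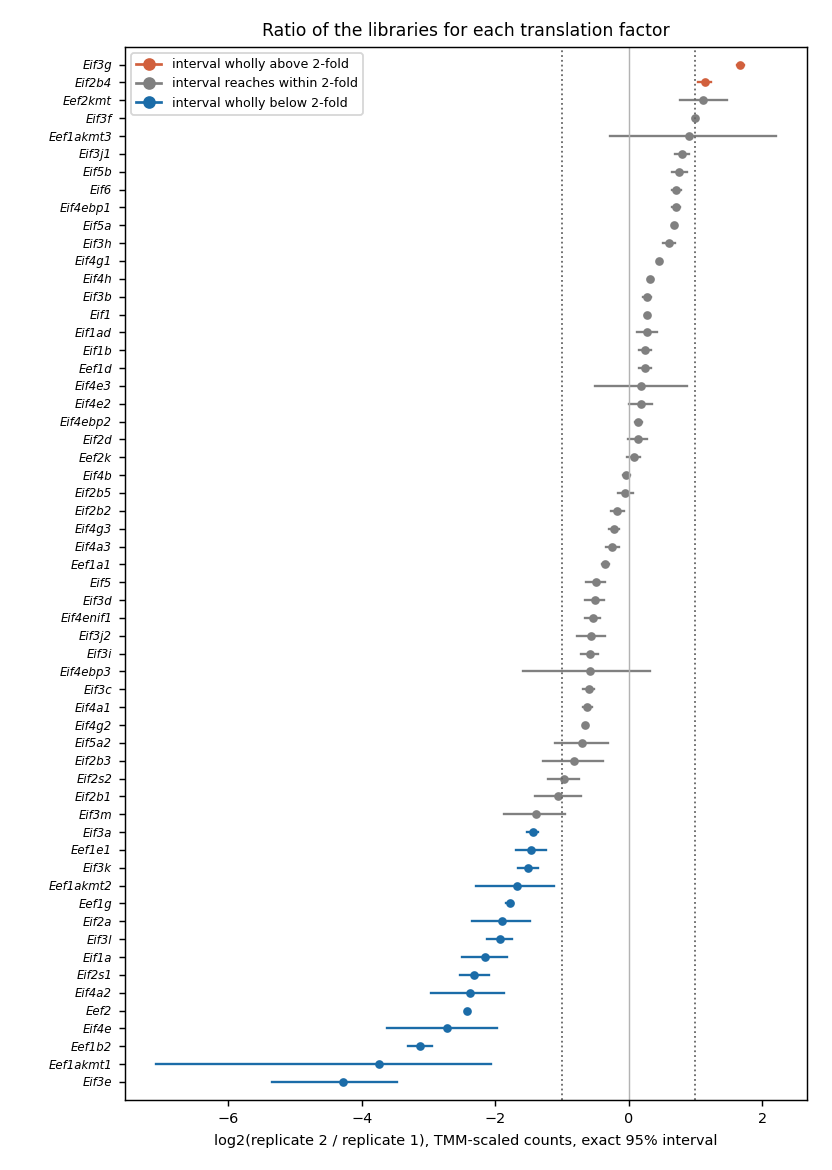
log2 ratio of replicate 2 over replicate 1 with its exact 95% interval for the 58 factors compared, in order of the ratio; dotted lines mark 2-fold. The 2 factors at the top, Eif3g and Eif2b4, lie wholly above 2-fold, and the 15 at the bottom, from Eif3a at −1.44 to Eif3e at −4.28, lie wholly below it.

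GC content moved with this ratio. The 15 factors higher in replicate 1 had a median GC content of 44.1% in their longest coding transcript, the 2 higher in replicate 2 of 56.3%, and the 41 that were not apart of 50.5%. Across the 58 factors GC content and the ratio had a Spearman's rho of 0.475 and a Pearson's r of 0.470, and across 11690 protein-coding genes 0.324 and 0.326, with all points from the same pair of libraries. Of the 17 factors under 45% GC, 9 were higher in replicate 1, where 25.2% of all protein-coding genes in that bin were. Of the 23 factors between 50 and 55% GC, 4 were, and 14.3% of all protein-coding genes in that bin. Between 45 and 50% GC it was 1 of 10 factors, against 16.3% of all protein-coding genes in that bin. At 55% GC and over it was 1 of 8 factors, against 5.66%. Factors higher in replicate 1 with a GC content over 50% included Eef2 at 57.0% GC, Eef1g at 52.0% and Eif3k at 53.9%. Transcript length showed almost no such relation, with a rho of 0.062 across the factors. Within each library GC content also moved with log2(TPM + 1). Spearman's rho was 0.448 in replicate 2 and 0.379 in replicate 1 across the 60 factors. Across 21428 protein-coding genes it was 0.373 and 0.341. How far this bears on level differences between genes, such as that of Eif3f and Eif3e, was not tested. The part of GC content in the ratios was not tested, nor was that of the erythroid, macrophage and B lineage genes, whose summed levels also differed between the libraries. Those lists were not uniform: besides the erythroid genes given above, the macrophage gene C1qc was higher in replicate 2 at 1.29 and Adgre1 higher in replicate 1 at −1.73, and of the B lineage genes Cd79a was higher in replicate 1 at −1.64 and the other 3 were not apart.

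**Figure D4:**
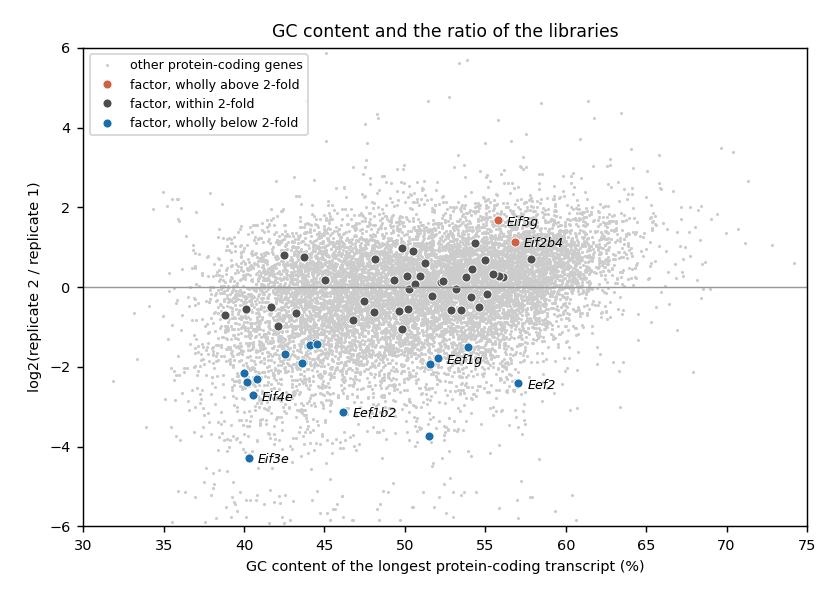
GC content of the longest coding transcript (horizontal, percent) and log2 ratio of replicate 2 over replicate 1 (vertical) for the 58 factors compared and, in grey, other protein-coding genes with 20 or more counts; genes beyond 6 in either direction are not shown. Factors higher in replicate 1 (blue) have a median GC content of 44.1% and reach from 40.0% to 57.0%.

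The leading transcript of the factors was shared by the libraries about as often as that of other genes. Of 34 factors with 2 or more annotated transcripts and 1 TPM or more in both libraries, 24 had the same leading transcript, or 70.6%, against 69.9% of 6747 protein-coding genes. Coding transcripts took 75.9% of factor TPM in replicate 2 and 85.2% in replicate 1, against 57.1% and 69.1% over all protein-coding genes. Retained-intron forms took 3.25% of factor TPM in replicate 2 and 0.673% in replicate 1, against 28.7% and 19.6% over all protein-coding genes. Shares of summed TPM weigh the most abundant genes most, on both sides, and do not describe the typical gene. Counted by gene, retained-intron forms led in 5 of the 52 detected factors in replicate 2 and in 2 in replicate 1. No such count was made over all protein-coding genes. Processed transcripts, which carry no annotated reading frame, took 17.5% in replicate 2 and 12.9% in replicate 1, against 7.47% and 7.15% over all, and most of this was the short Eif4g1-211. A switch with over 50% in each library was seen in 6 factors. Eif2b2 changed as described above, and Eif2b1 was led by the retained-intron Eif2b1-205 in replicate 2 (69.2%) and by the coding Eif2b1-201 in replicate 1 (63.5%). In Eif4g3 the processed Eif4g3-207 led in replicate 2 (60.5%) and the coding Eif4g3-214 in replicate 1 (59.8%). The other 3 changed between coding forms. Eif2a was led by Eif2a-201 in replicate 2 (100%, from 55 counts of the gene) and Eif2a-205 in replicate 1 (64.2%). Eif2d was led by Eif2d-203 in replicate 2 (84.3%) and Eif2d-202 in replicate 1 (94.1%), and Eif4a3 by Eif4a3-202 in replicate 2 (79.8%) and Eif4a3-201 in replicate 1 (95.2%). These shares are the authors' estimates and carry no error in the files.

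Genes of neighbouring steps of translation were read in the same way, against the same backgrounds of 8.78% higher in replicate 2 and 14.6% higher in replicate 1. Of 30 genes listed as regulators of the pathway, 26 reached 1 TPM in both libraries. Besides regulators of initiation the list held the hypusine enzymes Dhps and Dohh and also Tpt1. Of the 29 compared, 1 was higher in replicate 2 (3.45%) and 3 in replicate 1 (10.3%), with a median ratio of 0.22. The highest were Pabpc4 and Pabpc1, the poly(A) binding proteins, and Tpt1, itself a TOP mRNA. Pabpc4 had 2336 TPM in replicate 2 and 2468 TPM in replicate 1, Tpt1 1878 and 2311 TPM, and Pabpc1 2027 and 969 TPM. By counts Pabpc1 exceeded Pabpc4, with 107702 against 48234 in replicate 2 and 51336 against 49002 in replicate 1. Their order in TPM thus depended on the transcript lengths used. Pabpc1 was the regulator higher in replicate 2, at 1.56, and Ddx3x, Angel1 and Mknk1 were those higher in replicate 1, at −3.40, −2.06 and −1.23. The kinase Eif2ak1 had 34.7 TPM in replicate 2 and 31.4 TPM in replicate 1. The 7 genes listed under termination and recycling, among them the elongation factor gene Eefsec, had a median of 0.43. Of these 7, Gspt1 and Gspt2, which encode eRF3, were higher in replicate 2, at 1.22 and 1.77. The recycling ATPase Abce1 was higher in replicate 1, at −3.48. The highest were Gspt1 with 439 TPM in replicate 2 and 264 TPM in replicate 1, Etf1, the codon-reading release factor, with 38.3 and 40.2 TPM, and Pelo, a ribosome rescue factor, with 29.8 and 20.97 TPM. Of 9 mitochondrial translation factors, 8 were compared, and 4 of them were higher in replicate 1 (50%) and 0 in replicate 2, with a median of −1.18. Their highest members were Tsfm with 78.6 TPM in replicate 2 and 73.1 TPM in replicate 1, Tufm with 18.1 and 68.9 TPM, and Gfm1 with 6.81 and 13.3 TPM.

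Sequence shared with other genes limits some of these values. Transcripts of 32 factors shared 30 or more words of 25 bases with an annotated pseudogene elsewhere, led by Eef1a1 with 21 such pseudogenes, Eif1 with 19, Eef1g with 10 and Eif4a1 with 8. Those pseudogenes that had rows in the files held 20.5 counts in replicate 2 and 29.99 in replicate 1 for Eef1a1, 6.36 and 282 for Eef1g, and 73.5 and 66.3 for Eif4a1. In the annotation, 18 factors overlap a gene on the opposite strand and 5 a gene on their own strand, and the strand setting of the counting is not given in the sources used here. Spans of 8 factors hold 17 snoRNA genes, 5 of them in Eif4a2 and 3 each in Eif4a1 and Eef1b2, all of which had leading forms not annotated as coding in at least 1 library. Of the remaining factors with a snoRNA gene, Eif4g1 also had such a leading form. The others, Eef2, Eif3a, Eif4g2 and Eif5, were led by coding transcripts in both libraries.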

How the data were processed

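RNA was sequenced in 2 libraries of 1 group. Per the file headers, the authors gave for each gene and transcript an estimated count (expected count), which need not be whole, and TPM and FPKM made from it, on mm10 with GENCODE M4. The deposited percent is each transcript's share of its gene. For aligner, quantifier and strand setting: not given in the sources used here. Of 69691 gene rows, 43346 had an Ensembl identifier, and 42462 of these matched GENCODE M21, the source of symbols, types, positions, transcript lengths and GC content.

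The factors and gene lists were chosen with earlier results of these data known. Both library values were given for the 12 factors of highest mean TPM, the extremes of each complex, fixed paralog pairs, factors under 1 TPM, factors apart and factors that switch transcript; all other factors were added for completeness. Counts were rounded and scaled by TMM in edgeR 4.0.16 (R 4.3.3), and ratios used a prior count of 0.5 and the exact Clopper-Pearson interval. The call of genes as apart was checked on simulated data in which unchanged genes varied by counting error only. That check cannot speak to other differences between the libraries. The floor was 3 counts. Alternatives used FPKM, posterior mean values, other minimums, pseudocounts and prior counts, DESeq2 1.42.0 size factors, total counts, and each library alone. Python 3.11.15, pandas 2.3.3 and scipy 1.17.1 were used. Promoters are RefSeq entries on GRCm38.p6. Protein sequences were not used here.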

Additional observations from a re-analysis of the deposited data

How the results depend on the processing

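Scaling by total counts shifted the median ratio of all protein-coding genes to −0.47 and that of the factors to −0.85, left 1 factor higher in replicate 2 (Eif3g) and put 19 higher in replicate 1. With the ratio of deposited TPM the factors' median was −0.55, 3 factors were higher in replicate 2 (Eif2b2, Eif2b4 and Eif3g) and 19 in replicate 1. The other settings for the ratio gave 2 or 3 and 14 or 15 factors. The relaxed motif found 4 genes with a TOP-like start in place of 1. The count of factors at 1 TPM was 52 without replicate 1 and 56 without replicate 2; the other settings gave 43 (a minimum of 5 TPM) to 54. The median log2(TPM + 1) of the factors was 5.04, and 4.48 to 5.63 with each library left out; their mean share of TPM was 1.42%, and 1.18% to 1.66%. The log2 ratio of Eif4e over Eif4e3, 0.09 in the mean of both libraries, was −1.38 without replicate 1 and 1.56 without replicate 2. With the fixed transcript lengths of M21 it was −0.70. M21 gives Eif4e a coding length of 4991 bases, against 2882 in the authors' models. With fixed length 34 of 60 factor levels moved by more than the SD between the libraries, and with posterior mean TPM 2 did. The 34 include shifts of scale, because fixed-length levels differ from TPM even at an equal length. Eif4b, with 3853 bases in the authors' models and 3854 in M21, went from 82.4 to 146. Fixed lengths and coding transcripts alone were chosen after seeing the data. The part of transcript length in the 34 and the cause of the other shifts were not tested. Ratios to Eef1a2 and Eif4e1b, which rest on 3 counts or fewer, were not recomputed. No paired analysis was possible because there is 1 group. Precision is limited by the small counts of Eif4e, Eif3e and Eef1akmt1 in replicate 2 and by having 2 libraries.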
